A study of Mus musculus with 7 samples.

Results

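The potassium channel genes described here are all symbols that begin with Kcn, continue with lower-case letters and end in a number, apart from Kcne2 and Kcnj8. They numbered 90 of the 32531 symbols in the count tables, and 92 symbols fitted the pattern before those 2 genes were set aside. Tissue next to the brain ventricles was taken from adult mice of line ES2575, in which the Dcdc2a driver puts EGFP on the ribosomal protein Rpl10a. RNA pulled down with the tagged ribosomes by translating ribosome affinity purification (IP, 3 libraries numbered 1, 3 and 4) was set against total RNA of the same tissue (Input, 4 libraries numbered 1 to 4). All mice carried the tag, so that neither IP nor Input has an untagged counterpart here. IP number 2 was not analysed here. The series names ependymal cells, the ciliated cells that line the ventricles, as the cells it profiles. Nothing in the labels says that the libraries came from separate animals, so the p-values measure only the spread between these libraries, which may be technical.

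Potassium channels let potassium ions leave or enter cells and so set the resting potential of the membrane and end action potentials. Inward rectifiers (Kcnj genes) and tandem-pore-domain channels (Kcnk) pass current at rest, voltage-gated pores (Kcna, Kcnb, Kcnc, Kcnd, Kcnq, Kcnh) open on depolarisation, and calcium- or sodium-activated pores (Kcnma, Kcnn, Kcnt) follow ion levels inside the cell. Glia of the brain take up the potassium that neurons release, largely through Kir4.1, the product of Kcnj10, which can pair with Kir5.1, the product of Kcnj16. Many of the voltage-gated pores are known mainly from neurons.

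Counts assigned to genes ranged from 42422439 to 52175180 in IP and from 37203427 to 44754345 in Input, at which 3 counts correspond to 0.0575 to 0.0806 counts-per-million (CPM). All 10 ependymal marker genes rose in IP (edgeR adjusted p under 0.05), where 3.64% of all tested genes did. With the replicate number added to the fit as a block, 5 of the 10 were higher (0.553% of all tested genes). In limma voom 1 of the 10 was higher (0.357% of all tested genes). Their summed levels were 223, 2983 and 2502 CPM in IP 1, IP 3 and IP 4 and 28.2 to 46 CPM in the 4 Inputs. IP 1 therefore stood apart from the other IP libraries, and results that turn on it are given with and without it. The neuron markers summed to 7555 to 9285 CPM in IP and 10556 to 13283 CPM in Input, so that neuronal RNA was abundant in all 7 libraries. In such bulk libraries, fewer cells of a type and less RNA per cell cannot be told apart.

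In tagged-ribosome RNA, 1 potassium channel gene rose and 5 fell. The gene that rose was Kcnmb1, which encodes the beta1 subunit that tunes the large-conductance calcium-activated BK channel. The genes that fell were Kcng3, Kcnt2, Kcnj6, Kcnh7 and Kcnq3, all of which encode pore-forming or pore-modifying subunits. The glial inward rectifiers Kcnj10 and Kcnj16 did not pass the test in either direction. A low-count filter (at least 10 counts in enough libraries) left 78 of the 90 genes for testing, which is 86.7% of them, against 53.4% of all symbols. IP was compared with Input by the quasi-likelihood test of edgeR. Its p-values were adjusted by Benjamini-Hochberg over all 17375 genes tested, with a threshold of 0.05. Exons of 28 of the 90 genes overlap another gene model, and their values are uncertain because the strand setting is unknown. Reads that fell in several genes were 1.51% to 2.01% of each IP table and 9.33% to 12.9% of each Input table, and their part in the values of the overlapping genes, the called Kcnj6, Kcnh7 and Kcnt2 among them, was not tested. Among the genes named below these include Kcnab2, Kcnd3, Kcne3, Kcnh3, Kcnh7, Kcnip4, Kcnj13, Kcnj3, Kcnj6, Kcnj9, Kcnk1, Kcnk2, Kcnk3, Kcnma1, Kcnmb4, Kcnq5 and Kcnt2.

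The share of potassium channel genes called higher was 1.28%, against 3.64% of all tested genes. The share called lower was 6.41%, against 2.16% of all tested genes. At an unadjusted p under 0.05, 3 were higher and 14 lower, where the shares over all genes were 13.3% and 9.4%. Every IP library lay above every Input library for 1 gene, Kcnmb1 (1.28%, against 9.55% of all tested genes). Every IP library lay below every Input library for 15 genes (19.2%, against 10.4% of all tested genes), namely the 5 that fell with Kcna1, Kcna2, Kcna3, Kcnc2, Kcnip2, Kcnma1, Kcnmb2, Kcnq5, Kcnu1 and Kcnv1. The median log2 fold was -0.16, against 0.06 over all tested genes, with 31 positive and 47 negative. Of all 17375 tested genes, 9224 had a positive and 8151 a negative log2 fold, which is the background for the sign counts below. All 6 calls were lost when the replicate number was added to the fit as a block, under which 0 potassium channel genes passed in either direction (background 0.553% higher and 0.19% lower). Before adjustment, 3 genes were higher and 9 lower with the block. All 6 were also lost in limma voom (background 0.357% higher and 0.984% lower). There, 0 genes were higher and 14 lower before adjustment. The shares over all genes before adjustment were not taken in these alternative fits, so the unadjusted counts have no background. DESeq2 called 1 higher and 9 lower (background 8.14% and 5.61%). Leaving out IP 4, or any single Input, also ended all 6 calls, and leaving out IP 3 ended 4 of them.

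**Figure D1:**
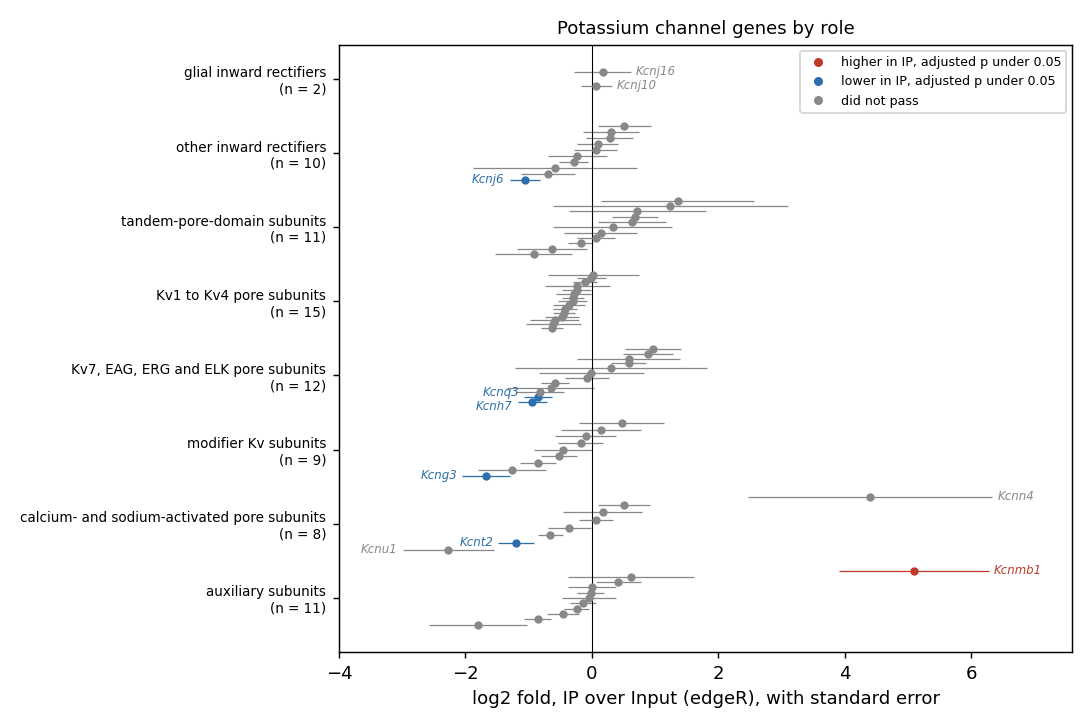
The horizontal axis is the log2 fold of IP over Input from the edgeR fit and each point is 1 of the 78 tested potassium channel genes, with a bar of 1 standard error, arranged by role. Kcnmb1 stands at 5.09, the 5 genes that fell lie between -1.67 and -0.85, and most Kv1 to Kv4 pore subunits lie a little to the left of 0.

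No difference between IP and Input was found for the glial inward rectifiers. Kcnj10 (ENSMUSG00000044708.5, chr1:172341210-172374085, plus strand) had 149, 210 and 256 CPM in IP 1, IP 3 and IP 4, against 201, 154, 166 and 259 CPM in Inputs 1 to 4. The IP and Input values overlapped almost completely. Its mean was 205 ± 53.8 CPM in IP and 195 ± 46.9 CPM in Input (SD, n = 3 and 4), and its log2 fold was 0.07 ± 0.25 (SE, 95% interval -0.48 to 0.62, edgeR adjusted p = 0.902). The fold turned to -0.04 with the replicate block and ranged from -0.12 to 0.25 when each library was left out in turn, so its sign was not settled. Without IP 1 it was 0.25 (adjusted p = 0.399).

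Kcnj16 (chr11:110968033-111027968, plus strand) had lower levels per kilobase of exon than Kcnj10, at 3.95 against 37.9 CPM per kilobase in IP and 3.51 against 36 in Input. It had 5.51, 20 and 21.2 CPM in IP 1, IP 3 and IP 4, against 13, 16.5, 10.4 and 15.4 CPM in Inputs 1 to 4. IP 1 was the lowest of the 7 libraries, and IP 3 and IP 4 were the highest. The log2 fold was 0.17 ± 0.45 (95% interval -0.83 to 1.17, adjusted p = 0.871), and 0.57 without IP 1 (adjusted p = 0.233). The log2 ratio to the same-numbered Input was -1.23 in number 1, 0.94 in number 3 and 0.47 in number 4. Both genes thus ran below Input in number 1, and in number 3 above it. The Kcnj10 ratios were -0.43, 0.34 and -0.02 in the same order.

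Of 10 tested markers of astrocytes, a known site of both genes, 2 were higher, the filament gene Gfap and the membrane protein gene Mlc1. None was lower. Over all tested genes 3.64% were higher and 2.16% lower. With the replicate block or in limma voom no astrocyte marker was called. Every IP library lay above every Input library for 3 of the markers and below for 1. The median log2 fold of the list was 0.65, with 8 of 10 positive. Without IP 1, 5 were higher and 1 lower, the glutamate transporter gene Slc1a2 (log2 fold -0.42, edgeR adjusted p = 0.0391). Over all genes tested in that fit 12.5% were higher and 9.55% lower. The summed astrocyte marker level was 2150 to 2938 CPM in IP and 2820 to 3061 CPM in Input, of which Slc1a2 alone gave 1040 to 1808 CPM in IP and 2099 to 2322 CPM in Input. The markers of oligodendrocytes, which are also glia, had a median log2 fold of -0.62, with 8 of 10 negative. Of these 10, 2 were lower and 0 higher, and none was called with the replicate block. The part of either marker list in the Kcnj10 and Kcnj16 values was not tested.

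Set beside the rest of the family, the 2 glial genes made up 3.4%, 6.87% and 6.88% of all potassium channel CPM in IP 1, IP 3 and IP 4, against 4.52%, 3.46%, 3.92% and 5.98% in Inputs 1 to 4. IP 3 and IP 4 held the highest shares and IP 1 the lowest. The summed level of the 2 glial genes overlapped between the groups, at 154, 230 and 277 CPM in IP 1, IP 3 and IP 4. In Inputs 1 to 4 it was 214, 171, 176 and 274 CPM. The shares also depend on the total of all potassium channel CPM, which was 4527, 3342 and 4028 in IP and 4499 to 4925 in Input. The 26 genes listed as neuronal channels made up 62%, 58.4% and 57.4% of it in the same IP libraries and 63.8% to 64.3% in the Inputs. All 3 IP shares of the neuronal genes lay below all 4 Input shares. Their summed level was 2806, 1952 and 2313 CPM in IP, against 3018, 3142, 2886 and 2947 CPM in Input. Of these 26 genes, 0 rose (3.64% of all tested genes did) and 3 fell (Kcnj6, Kcnh7 and Kcnq3), which is 11.5%, against 2.16% of all tested genes. Of the 26 folds 21 were negative, with a median of -0.30, where 8151 of all 17375 tested genes were negative. In 9 of the 26 genes (34.6%, against 10.4% of all tested genes) every IP library lay below every Input library. The neuron markers had a median log2 fold of -0.39, with 7 of 10 negative and 3 positive, up to 0.83. Of the 10, 1 was lower (Map2) and 0 higher, against 2.16% and 3.64% of all tested genes. None was called with the replicate block, and 4 were lower without IP 1 (9.55% of all genes tested in that fit). Every IP library lay below every Input library for 5 of these markers and above for 1. The part of the neuron markers in the neuronal channel values was not tested. The 50 tested genes outside the neuronal channels and the glial pair had a median of -0.01. Of them 1 was higher (Kcnmb1, 2%) and 2 were lower (Kcng3 and Kcnt2, 4%). The neuronal list was chosen with earlier results of these data known, so its contrast with the other genes is a description only.

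**Figure D2:**
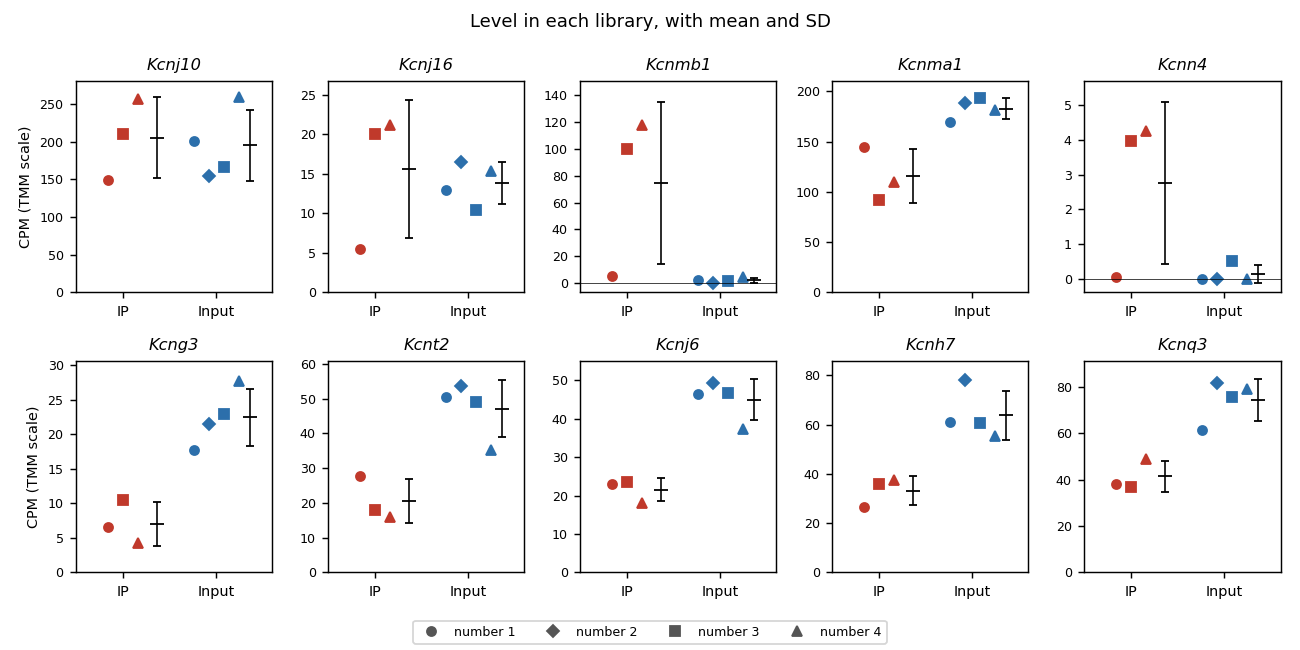
Each panel plots the level of 1 gene, in CPM on the TMM scale, in the 3 IP libraries (left) and the 4 Input libraries (right). Marker shapes give the library number, and the bar to the right of each group gives mean and SD. Kcnj10 and Kcnj16 overlap between the groups, Kcnmb1 and Kcnn4 are high in IP 3 and IP 4 but not in IP 1, and the 5 genes of the lower row and Kcnma1 have every IP library below every Input library.

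Among the 10 tested other inward rectifiers, Kcnj6 fell (10%, against 2.16% of all tested genes). No gene rose, where 3.64% of all tested genes did. Kcnj6 encodes GIRK2, a pore that G proteins open downstream of inhibitory receptors. It had 23.1, 23.5 and 18.1 CPM in IP 1, IP 3 and IP 4, against 46.3, 49.4, 46.8 and 37.2 CPM in Inputs 1 to 4. No IP value reached the lowest Input value. Its log2 fold was -1.06 ± 0.24 (SE, edgeR adjusted p = 0.0337), with within-number log2 ratios that all lay between -1.03 and -0.99. With the replicate block the adjusted p was 0.157. Exons of Kcnj6 share 380 bases with an antisense gene model, Gm41505, whose reads cannot be told apart without the strand setting.

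The other GIRK subunits did not pass. Kcnj3 (GIRK1) had 78, 61.3 and 48.8 CPM in IP 1, IP 3 and IP 4, against 86.8, 84.9, 71.3 and 63.8 CPM in Inputs 1 to 4 (log2 fold -0.29 ± 0.23, adjusted p = 0.509). Kcnj9 (GIRK3) had 49.9, 19.8 and 26.7 CPM in IP, against 34.7, 27.5, 25.7 and 32.7 CPM in Input. Kcnj5 (GIRK4) had 6.81, 16.8 and 7.47 CPM in IP, against 8.04, 6.35, 7.02 and 7.59 CPM in Input. The log2 folds of the 4 GIRK genes ranged from -1.06 to 0.51, and IP 1 was highest for Kcnj9 while IP 3 was highest for Kcnj5.

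Kcnj11, the pore of the ATP-sensitive channel, had 20.4, 6.23 and 11.2 CPM in IP 1, IP 3 and IP 4, against 23.7, 21.3, 23.9 and 12.4 CPM in Inputs 1 to 4. It did not pass with all libraries (log2 fold -0.69 ± 0.43, adjusted p = 0.391), and was lower without IP 1 (-1.22, adjusted p = 0.039). Kcnj13, which encodes Kir7.1, a channel of the choroid plexus, had 15.5, 30.5 and 30 CPM in IP, against 14, 15, 30 and 24.7 CPM in Input (log2 fold 0.28 ± 0.37, adjusted p = 0.723). Both groups spanned about the same range. Of the 10 choroid plexus markers 1 was higher (Calml4), where 3.64% of all tested genes were. Without IP 1, 3 were higher, where 12.5% of all genes tested in that fit were. Their summed level was 1364, 3266 and 3322 CPM in IP, against 3095, 2340, 3034 and 4218 CPM in Input. Their part in the Kcnj13 values was not tested. Exons of Kcnj13 share 623 bases with Gigyf2 on the opposite strand.

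Kcnj10 and Kcnj16 each have an inward rectifier gene beside them in the genome. The start of Kcnj9, which is on the minus strand, lies 11891 bases before that of Kcnj10, so that the pair is head to head, and Kcnj2 (Kir2.1) starts 38195 bases after Kcnj16, on the same strand. Kcnj2 had 17, 46.9 and 43.7 CPM in IP 1, IP 3 and IP 4, against 33.9, 36.7, 38.9 and 28.1 CPM in Inputs 1 to 4. It did not pass (log2 fold 0.06, adjusted p = 0.943), and IP 1 was the lowest library, as it was for Kcnj16.

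Among the tandem-pore-domain subunits none of 11 tested genes passed, and at an unadjusted p under 0.05 the count was also 0. Their median log2 fold was 0.33, with 8 of 11 positive, where 9224 of all 17375 tested genes were positive. Kcnk1 (TWIK1) had 72.6, 99.4 and 96.2 CPM in IP 1, IP 3 and IP 4, against 93.1, 91.2, 103 and 118 CPM in Inputs 1 to 4 (log2 fold -0.18 ± 0.20, adjusted p = 0.661). The groups overlapped. Kcnk2 (TREK1), a channel opened by stretch and lipids, had 31.8, 81 and 60.6 CPM in IP, against 57.5, 47.3, 64.2 and 53 CPM in Input (log2 fold 0.06 ± 0.30, adjusted p = 0.937).

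The acid-sensitive pair differed in sign without passing. Kcnk3 (TASK1) had 23.6, 10.6 and 17.3 CPM in IP 1, IP 3 and IP 4, against 12.3, 12.7, 9.36 and 8.5 CPM in Inputs 1 to 4 (log2 fold 0.68 ± 0.36, adjusted p = 0.302). Kcnk9 (TASK3) had 14.5, 3.68 and 4.23 CPM in IP, against 21.7, 19.4, 9.53 and 6.04 CPM in Input (log2 fold -0.92 ± 0.61, adjusted p = 0.42). Without IP 1, Kcnk9 was lower (-1.84, adjusted p = 0.0247). Exons of Kcnk1, Kcnk2 and Kcnk3 overlap antisense gene models.

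None of the 15 tested Kv1 to Kv4 pore subunits passed. The log2 fold was negative in 14 of them, as it was in 8151 of all 17375 tested genes. The median was -0.30 and the range -0.63 to 0.02 over the 15. At an unadjusted p under 0.05, 0 were higher and 2 lower (13.3%, against 9.4% of all tested genes). Kcna1 and Kcna2, whose products (Kv1.1 and Kv1.2) sit along axons, had the highest levels per kilobase of exon in this group. Kcna1 had 322, 343 and 372 CPM in IP 1, IP 3 and IP 4, against 508, 522, 442 and 406 CPM in Inputs 1 to 4 (log2 fold -0.44 ± 0.17, adjusted p = 0.163). Kcna2 had 291, 330 and 441 CPM in IP, against 463, 520, 455 and 459 CPM in Input (log2 fold -0.42 ± 0.19, adjusted p = 0.22). In both genes every IP library lay below every Input library.

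Kcnc2, the Kv3.2 pore of fast-spiking neurons, came nearest to a call in this group. It had 158, 139 and 136 CPM in IP 1, IP 3 and IP 4, against 213, 244, 206 and 227 CPM in Inputs 1 to 4. The groups did not overlap, and the log2 fold was -0.63 ± 0.17 (adjusted p = 0.0605). It was called lower by DESeq2 (adjusted p = 0.0229) and without IP 1 (adjusted p = 0.00501). Kcnc1 (Kv3.1) had 186, 136 and 152 CPM in IP, against 193, 173, 203 and 208 CPM in Input (log2 fold -0.30 ± 0.18, adjusted p = 0.386). Kcnd2 (Kv4.2), a dendritic channel, had 76.6, 67.7 and 76.4 CPM in IP, against 69, 77, 83.1 and 88 CPM in Input (log2 fold -0.11 ± 0.19, adjusted p = 0.794).

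Of the 12 tested Kv7 and EAG-related pores, Kcnh7 and Kcnq3 fell (16.7%, against 2.16% of all tested genes). None rose, where 3.64% of all tested genes did. Kcnh7 encodes an ERG-type channel. It had 26.6, 35.7 and 37.3 CPM in IP 1, IP 3 and IP 4, against 60.9, 78.3, 60.5 and 55.4 CPM in Inputs 1 to 4. The highest IP value stayed well under the lowest Input value. Its log2 fold was -0.94 ± 0.23 (adjusted p = 0.0435, and 0.203 with the replicate block). Its exons share 696 bases with Gca on the opposite strand.

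Kcnq3 encodes Kv7.3, a pore of the M current that damps neuronal firing. Kcnq3 had 38.3, 37 and 48.9 CPM in IP 1, IP 3 and IP 4, against 61.5, 81.8, 75.8 and 79 CPM in Inputs 1 to 4. The groups did not overlap, and its log2 fold was -0.85 ± 0.22 (adjusted p = 0.0483, and 0.197 with the replicate block). Kcnq5, another M-current gene, had 57.3, 37.6 and 59.1 CPM in IP, against 74.8, 77.1, 77.2 and 77.2 CPM in Input (log2 fold -0.58 ± 0.22, adjusted p = 0.152).

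Some other members of this group, among them Kcnh2 and Kcnh3, had positive log2 folds without passing. Kcnh2 (ERG1) had 75.8, 22.4 and 38 CPM in IP 1, IP 3 and IP 4, against 27.7, 30.2, 15.3 and 24.7 CPM in Inputs 1 to 4 (log2 fold 0.89 ± 0.40, adjusted p = 0.217). Kcnh3, an ELK-type pore of the forebrain, had 57.9, 16.9 and 24 CPM in IP, against 12.4, 12.3, 17.9 and 25 CPM in Input (log2 fold 0.97 ± 0.44, adjusted p = 0.226). IP 1 was the highest library for both. Without it the log2 folds were 0.30 for Kcnh2 and 0.28 for Kcnh3. The log2 ratios of Kcnh3 to the same-numbered Input were 2.22, -0.08 and -0.06 in numbers 1, 3 and 4.

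The modifier subunits are pore-like proteins that are silent alone and change the Kv channels they join. Of 9 tested genes 1 fell, Kcng3 (Kv6.3), which is 11.1%, against 2.16% of all tested genes. The log2 fold was negative in 7 of the 9, where it was in 8151 of all 17375 tested genes. Its median over the 9 was -0.46. Kcng3 had 6.51, 10.5 and 4.19 CPM in IP 1, IP 3 and IP 4, against 17.8, 21.5, 22.9 and 27.7 CPM in Inputs 1 to 4. Every IP value was well below every Input value. The log2 fold was -1.67 ± 0.38 (adjusted p = 0.0357, and 0.142 with the replicate block), with ratios of -1.44, -1.12 and -2.71 in numbers 1, 3 and 4. Kcnv1 (Kv8.1) had 14, 15.1 and 14.5 CPM in IP, against 17.6, 31.3, 30.5 and 25.2 CPM in Input (log2 fold -0.85 ± 0.29, adjusted p = 0.12). DESeq2 called Kcnv1 lower (adjusted p = 0.0495). Kcnf1 (Kv5.1) overlapped between the groups, at 33.2, 12.9 and 32.5 CPM in IP and 32.5, 37.6, 22.9 and 25.4 CPM in Input.

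The 8 tested calcium- and sodium-activated pores held 1 gene that fell, Kcnt2 (12.5%, against 2.16% of all tested genes). None rose, where 3.64% of all tested genes did. Kcnt2 encodes Slick, a sodium-activated channel. It had 27.7, 17.9 and 16 CPM in IP 1, IP 3 and IP 4, against 50.5, 53.8, 49.1 and 35.3 CPM in Inputs 1 to 4. The groups did not overlap, and the log2 fold was -1.20 ± 0.28 (adjusted p = 0.0385, and 0.137 with the replicate block). Kcnt1, which encodes the related channel Slack, had 142, 13.5 and 35.3 CPM in IP, against 58.3, 59.9, 52.5 and 54.9 CPM in Input. IP 1 was the highest of the 7 libraries and IP 3 and IP 4 the lowest. Its log2 fold was 0.17 ± 0.62 (adjusted p = 0.908) with all libraries and -1.21 (adjusted p = 0.0138) without IP 1.

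The BK pore gene did not share the rise of its beta1 subunit. Kcnma1, the only BK pore gene, had 145, 92.2 and 110 CPM in IP 1, IP 3 and IP 4, against 169, 188, 193 and 181 CPM in Inputs 1 to 4. All IP values lay below all Input values. The log2 fold was -0.66 ± 0.20 and did not pass (adjusted p = 0.0846), and without IP 1 it was -0.86 (adjusted p = 0.00165). Exons of Kcnma1 share 1016 bases with an antisense gene model.

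Kcnmb1 (ENSMUSG00000020155.2, chr11:33963013-33973641, plus strand) had 5.53, 99.7 and 118 CPM in IP 1, IP 3 and IP 4, against 2.43, 0.0671, 1.61 and 4.62 CPM in Inputs 1 to 4. These levels rest on 276, 4525 and 6033 counts in IP and on 99, 3, 59 and 188 counts in Input. IP 3 and IP 4 stood far above all other libraries, while IP 1 lay just above the highest Input. The mean was 74.3 ± 60.2 CPM in IP and 2.18 ± 1.9 CPM in Input (SD, n = 3 and 4). The log2 fold was 5.09 ± 1.19 (SE, 95% interval 2.39 to 7.79, edgeR adjusted p = 0.0417), or 34.1-fold. The log2 ratio to the same-numbered Input was 1.17, 5.91 and 4.66 in numbers 1, 3 and 4, so that all 3 pointed up and number 1 least. The call was lost with the replicate block (log2 fold 4.08, adjusted p = 0.137), with no low-count filter (adjusted p = 0.132) and in limma voom (adjusted p = 0.243). It was also lost when any 1 library other than IP 1 was left out (adjusted p between 0.0713 and 0.124), and kept without IP 1 (5.64, adjusted p = 0.0208).

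Kcnmb1 lies inside a gap between exons of Kcnip1, a gene on the minus strand (chr11:33629339-33993152), and 0 exons of Kcnip1 touch it. Kcnip1, a calcium sensor that joins Kv4 channels, had 41.6, 40.3 and 38.9 CPM in IP 1, IP 3 and IP 4, against 45.2, 50.4, 40.8 and 41.2 CPM in Inputs 1 to 4. It did not pass (log2 fold -0.14 ± 0.21, adjusted p = 0.751), and its IP values varied little where those of Kcnmb1 varied widely.

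Per kilobase of exon, the ratio of Kcnmb1 to Kcnma1 was 0.154, 4.38 and 4.35 in IP 1, IP 3 and IP 4, against 0.0581, 0.00145, 0.0339 and 0.103 in Inputs 1 to 4. The level of the beta1 gene passed that of the pore gene in IP 3 and IP 4 and in no other library. The size of these ratios depends on exon length, taken over all annotated exons (4191 bases for Kcnmb1 and 16976 for Kcnma1). In CPM the genes were close, at 99.7 against 92.2 in IP 3 and 118 against 110 in IP 4. The other BK beta subunits tested did not pass. Kcnmb4, the main beta subunit of neurons, had 9.97, 7.2 and 4.64 CPM in IP, against 5.52, 9.5, 8.41 and 6.73 CPM in Input (log2 fold -0.05 ± 0.43, adjusted p = 0.959). Kcnmb2, which makes BK channels inactivate, had 1.22, 0.661 and 4.43 CPM in IP, against 5.08, 14.5, 4.97 and 4.79 CPM in Input (log2 fold -1.80 ± 0.77, adjusted p = 0.196). Kcnmb3 was at 0 counts in all 7 libraries.

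Kcnmb1 is known from smooth muscle, and 3 of 10 markers of mural cells (Vtn, Acta2 and Tagln) rose as well, where 3.64% of all tested genes did. Without IP 1, or in DESeq2, 7 of the 10 were higher (12.5% and 8.14% of all genes tested in those fits). None was higher with the replicate block or in limma voom. All 10 had a positive log2 fold, with a median of 2.35. Their summed level was 66, 821 and 370 CPM in IP 1, IP 3 and IP 4, against 47.6, 48.1, 53.9 and 35.1 CPM in Inputs 1 to 4. Myh11, the smooth muscle myosin, is 1 gene of this list that was not called and had low levels throughout. It had 0.481, 0.529 and 2.5 CPM in IP, against 1.72, 0.447, 0.683 and 0.246 CPM in Input. The ependymal markers also moved with Kcnmb1, with a median log2 fold of 5.82. None of the mural or ependymal markers was at 0 in all IP libraries. IP 3 held the highest mural and ependymal sums and IP 4 the highest Kcnmb1 level. The part of either cell type in the Kcnmb1 values was not tested.

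**Figure D3:**
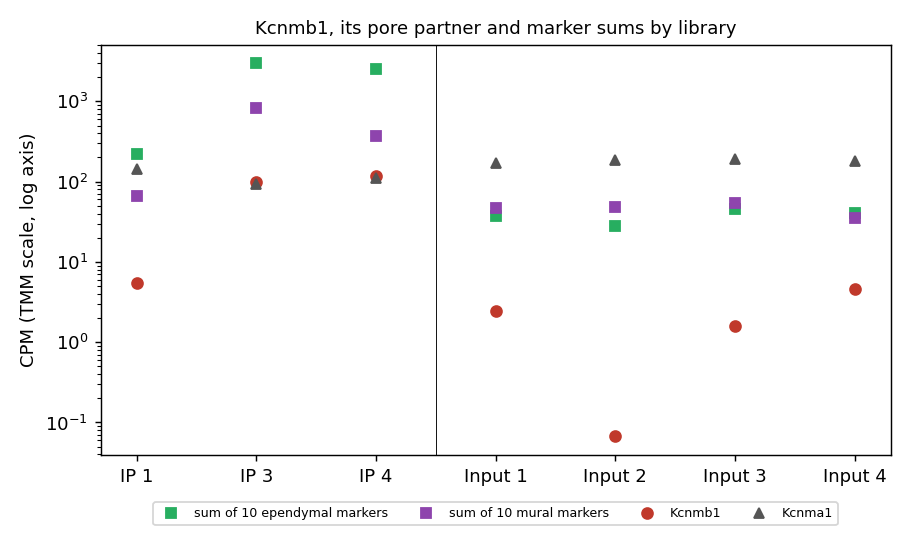
The vertical axis is the level in CPM on a log scale in each of the 3 IP libraries (left) and 4 Input libraries (right), for Kcnmb1, the BK pore gene Kcnma1, and the sums of 10 ependymal and of 10 mural markers. Kcnmb1 and both sums are high in IP 3 and IP 4 and much nearer to Input in IP 1, while Kcnma1 stays between 92.2 and 193 CPM throughout.

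The stretch just before the start of Kcnmb1 is shown because this gene carried the only rise, and that of Kcnj10 because it is the main glial member. Both are the 250 bases upstream of the RefSeq start (build GRCm38.p6, plus strand, 5′ to 3′), at chr11:33962763-33963012 for Kcnmb1 and chr1:172340960-172341209 for Kcnj10. Capitals mark each CG step.
Kcnmb1: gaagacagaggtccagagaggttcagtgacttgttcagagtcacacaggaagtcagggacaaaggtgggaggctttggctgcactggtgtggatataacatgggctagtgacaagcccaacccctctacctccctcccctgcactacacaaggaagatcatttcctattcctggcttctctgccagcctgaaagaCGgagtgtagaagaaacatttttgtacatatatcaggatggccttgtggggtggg
Kcnj10: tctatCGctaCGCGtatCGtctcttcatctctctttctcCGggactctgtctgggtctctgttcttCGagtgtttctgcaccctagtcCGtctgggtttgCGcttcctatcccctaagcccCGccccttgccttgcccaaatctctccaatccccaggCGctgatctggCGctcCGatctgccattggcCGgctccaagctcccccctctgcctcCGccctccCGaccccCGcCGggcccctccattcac

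The Kcnmb1 stretch holds 1 CG step and the Kcnj10 stretch 17. Over the 56 tested potassium channel genes with such a stretch the median was 10 (range 0 to 43), against a median of 6 over all 32851 stretches. The sets differ, here and for the motifs below. The 56 genes give 1 stretch each, at the most upstream start, while all stretches include further starts of a gene and untested genes. At most 1 CG step was found in 3 of the 56 genes, Kcnmb1, Kcnf1 and Kcnk1, whereas 18.8% of all stretches had so few. Kcnf1 and Kcnk1 did not pass in IP. The letters GTTGCC, part of the motif of the RFX factors of ciliated cells, were searched on both strands and were found in 7 of the 56 genes and in 10.4% of all stretches. The forkhead letters TGTTTAC were in 0 of the 56 and 3.17% of all stretches, and the CArG box of smooth muscle genes in 0 of the 56 and 1.47% of all. None of the 3 motifs was in the Kcnmb1 or the Kcnj10 stretch, which says only that these letters are not in this window.

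Kcnn4, the intermediate-conductance calcium-activated channel, is a further gene with high values in IP 3 and IP 4. It was named after its values were seen. It had 3, 180 and 218 counts in IP 1, IP 3 and IP 4, which is 0.0601, 3.96 and 4.25 CPM, against 0, 0, 19 and 0 counts in Inputs 1 to 4. IP 1 was within the Input range, and Input 3 was the only Input with any count. The fitted log2 fold of 4.40 ± 1.93 depends on the prior count and did not pass (adjusted p = 0.209), and without IP 1 the gene was called (4.98, adjusted p = 0.0379). Kcnu1, known in mouse as the sperm channel Slo3, lay at the other end. It had 2.04, 0.507 and 0.605 CPM in IP, against 5.47, 4.56, 6.39 and 3.91 CPM in Input, with no overlap (log2 fold -2.27 ± 0.72, adjusted p = 0.0948). It was called lower by DESeq2 (adjusted p = 0.00871) and without IP 1 (adjusted p = 0.00889).

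Of the auxiliary subunits other than Kcnmb1, none of the tested genes passed. Kcnip2 (KChIP2), which joins Kv4 channels, was the nearest. It had 98.4, 61.5 and 82.5 CPM in IP 1, IP 3 and IP 4, against 176, 134, 150 and 127 CPM in Inputs 1 to 4. The groups did not overlap, and the log2 fold was -0.86 ± 0.22 (adjusted p = 0.0505). DESeq2 called it lower (adjusted p = 0.0137), as did the fit without IP 1 (adjusted p = 0.00184). Kcnip4 had 70.1, 109 and 87.3 CPM in IP, against 98.4, 108, 112 and 100 CPM in Input (log2 fold -0.24 ± 0.20, adjusted p = 0.549). Kcnab2, a beta subunit of Kv1 channels, had 340, 100 and 159 CPM in IP, against 152, 188, 134 and 126 CPM in Input. Its IP 1 value was the highest of all, and its log2 fold was 0.42 ± 0.36 (adjusted p = 0.547) with all libraries and -0.21 without IP 1.

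The counts depended on IP 1. Without it, 2 potassium channel genes rose (Kcnmb1 and Kcnn4) and 16 fell, which is 2.56% and 20.5% of those tested, against 12.5% and 9.55% of all genes tested in that fit. Besides the 5 genes above, the genes that fell included Kcnc2, Kcnd3, Kcnip2, Kcnj11, Kcnk9, Kcnma1, Kcnq5, Kcnt1 and Kcnu1. The neuronal list then held 10 genes that fell. In 3 genes, among them Kcnh4 and Kcnt1, IP 1 lay above every Input while IP 3 and IP 4 lay below every Input (3.85%, against 4.99% of all tested genes). IP 3 was the lowest of the 7 libraries for 29 of the 78 genes (37.2%, against 21.3% of all tested genes), and IP 1 for 16 (20.5%, against 21.6%).

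Within numbers the picture leaned the same way. The IP library was below the Input of its number for 49 of the 78 genes in number 1 (62.8%, against 49.5% of all tested genes), for 55 in number 3 (70.5%, against 50.8%) and for 47 in number 4 (60.3%, against 49.8%). In 28 genes (35.9%, against 20.6% of all tested genes) it was below in all 3 numbers. In 7 genes (8.97%, against 20.6%) it was above in all 3, namely Kcnmb1, Kcnn4, Kcnh1, Kcnh2, Kcnk3, Kcnk5 and Kcnj13.

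**Figure D4:**
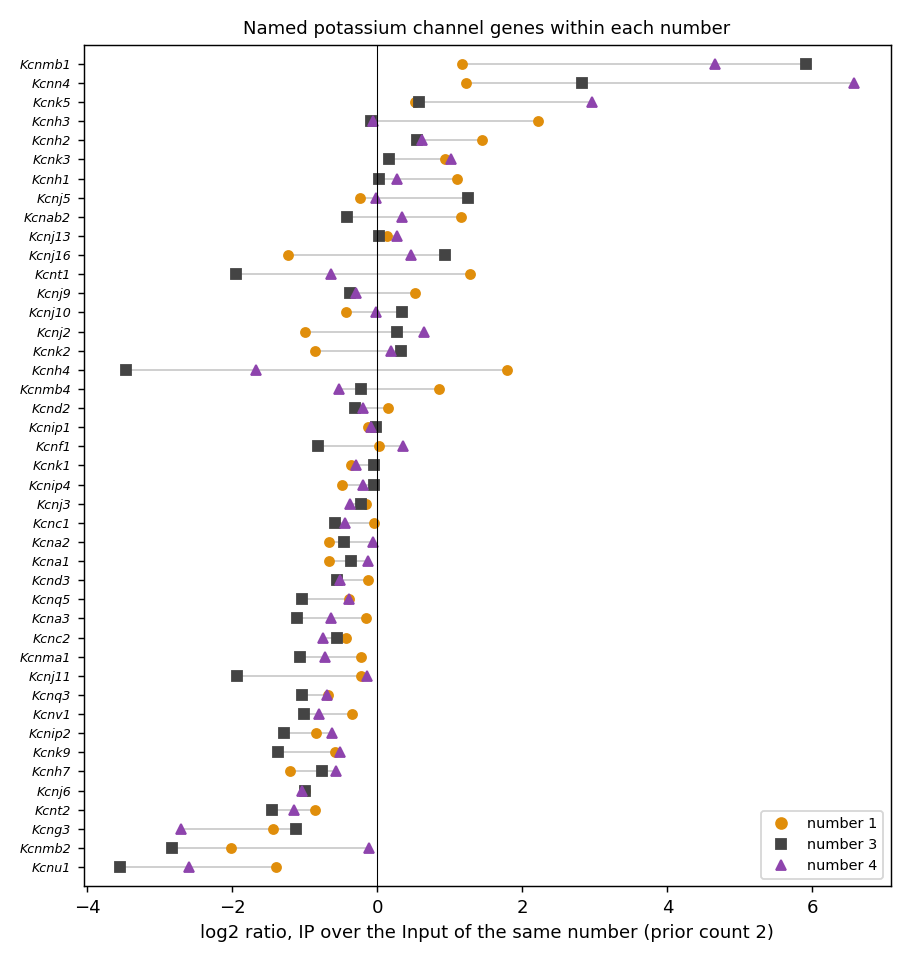
The horizontal axis is the log2 ratio of IP over the Input of the same number (prior count 2) for each tested potassium channel gene named in the text, ordered by log2 fold with the highest at the top. Colours and shapes give the numbers 1, 3 and 4. Kcnj6 has nearly the same ratio in all 3 numbers, Kcnmb1 is above 0 in all 3, and Kcnt1 is above 0 in number 1 and below 0 in the others.

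Ranked by level per kilobase of exon, the first 2 genes of the family were the same in IP and Input and the order below them was not. Kcna1 led with 72.3 ± 5.26 CPM per kilobase in IP and 98.2 ± 11.5 in Input (SD, n = 3 and 4), followed by Kcnk1 with 40 ± 6.55 in IP and 45.3 ± 5.48 in Input. Kcnj10 had rank 3 in IP with 37.9 ± 9.95 and rank 5 in Input with 36 ± 8.67, and its distance from Kcnk1 was within the SD in IP. Kcnab2 had rank 4 in IP and 9 in Input, and Kcnip2 rank 7 in IP and 3 in Input. The level of Kcnmb1 per kilobase was 17.7 ± 14.4 in IP, rank 12 of the family, against 0.52 ± 0.453 in Input, rank 70.

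The 12 genes that the filter removed had few counts. Kcne1, Kcnj1, Kcnj15, Kcnk16 and Kcnmb3 were at 0 in all 7 libraries, and Kcna7, Kcna10, Kcnk15, Kcnk18 and Kcnq1 had at most 2 counts in any library. The others were high in 1 library. Kcne3, which encodes a small partner of Kv7.1, had 113, 0 and 0 counts in IP 1, IP 3 and IP 4, against 0, 0, 7 and 1 in Inputs 1 to 4. Kcnv2 (Kv8.2), known from photoreceptors, had 0, 2 and 45 counts in IP, against 0, 1, 0 and 0 in Input.

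Partners of the channels outside the family were set beside them by list, and in the following lists no gene passed with all libraries. This held for 6 tested cation-chloride cotransporters, of which Slc12a4 had the smallest p (log2 fold 1.38 ± 0.45, adjusted p = 0.0997), and for the 4 HCN channels. It held for 12 tested other partners, where Abcc9, a subunit of ATP-sensitive channels, had 2.24, 44.2 and 11.8 CPM in IP 1, IP 3 and IP 4, against 1.42, 5.54, 5.13 and 3.29 CPM in Inputs 1 to 4 (2.34 ± 0.83, adjusted p = 0.133, and 2.86 with adjusted p = 0.00183 without IP 1). It also held for the 9 genes of the perivascular complex that anchors Kir4.1 and the water channel in glial end-feet. Aqp4, the water channel gene itself, had a log2 fold of 0.41 ± 0.31 (adjusted p = 0.482), and was called higher without IP 1 (0.75, adjusted p = 0.00473). Without IP 1, 1 of 6 cotransporters and 1 of 4 HCN channels were lower. In the same fit, 1 of 12 other partners and 2 of 9 anchoring genes were higher. Over all genes tested in that fit, 12.5% were higher and 9.55% lower, and no result about the partners is drawn from these counts.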

How the data were processed

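Total RNA (4 Input libraries) and RNA bound to tagged ribosomes (3 IP libraries) were sequenced. The authors deposited 1 table of whole-number counts per gene symbol and library, not normalized. STAR 2.0.0e, HTSeq and build mm10 are named per the submitters' processing notes, while settings, annotation and strand were not given in the sources used here. HTSeq's lines for reads in no gene, in several genes or at several places (40.1% to 49% of each IP table and 45.7% to 52.1% of each Input table) stayed out of library sizes and tests. The potassium channel genes, roles and lists were chosen with earlier results of these data known.

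The filter was filterByExpr with a minimum count of 10 and a minimum total of 15 (edgeR 4.0.16, R 4.3.3). Libraries were scaled with TMM factors, and groups were compared with the quasi-likelihood test in its robust form, without covariates. The p-values were adjusted by Benjamini-Hochberg over all 17375 genes, with a threshold of 0.05. Standard errors are the log2 fold over the square root of F. CPM are on the TMM scale, and ratios within a number use a prior count of 2. Levels per kilobase use the union of all annotated exons of a gene. The fit was tested on simulated counts. All 90 symbols matched GENCODE M21, which uses the assembly of mm10, and positions are 1-based. Limits of 3 counts and intervals cover counting error or the spread between libraries only.

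Named genes were Kcnj10, Kcnj16, every called gene and, in each role, the gene with the highest mean CPM and the 2 with the smallest p, with the called gene and that of smallest p in each partner list. Kcna3, Kcnc1, Kcnd2, Kcnd3, Kcne3, Kcnh1, Kcnh2, Kcnh3, Kcnh4, Kcnip1, Kcnip4, Kcnj13, Kcnj2, Kcnj5, Kcnj9, Kcnk2, Kcnk5, Kcnmb2, Kcnmb4, Kcnn4, Kcnq5, Kcnt1, Kcnu1 and Kcnv2 were named after their values were seen, as were the further marker and partner genes. Some genes that the rule takes are not reported here.

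Numbers were taken to pair the libraries because the labels put the IP and Input of numbers 1, 3 and 4 on the same lanes (4, 2 and 3). After the group means were removed, an IP and its same-numbered Input correlated across genes at 0.032, 0.043 and 0.026, and no IP correlated better with another Input. These correlations are too small to settle whether the numbers pair the libraries. Alternatives were DESeq2 size factors, total counts, no filter, the replicate block, DESeq2 1.42.0, limma 3.58.1 voom, and leaving out each library.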

Additional observations from a re-analysis of the deposited data

Results flagged for a closer look

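Among the 4 Input libraries, 1 stood far from the others for 5 of the 43 named and tested potassium channel genes; chance alone does this for about 1 group in 20. Kcna2 had 520 CPM in Input 2, against 455 to 463 CPM in the other Inputs. Kcnmb2 had 14.5 CPM in Input 2, against 4.79 to 5.08 CPM in the others. Kcnn4 had 0.519 CPM in Input 3 and no count in the others. Kcnq5 had 74.8 CPM in Input 1, against 77.1 to 77.2 CPM in the others, a gap that is large only because those 3 lay so close together. Kcnk5 had 0.711 CPM in Input 1, against 0.0737 to 0.179 CPM in the others. The IP group of 3 libraries was too small for this comparison.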

How the results depend on the processing

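With 1 gene higher and 5 lower as the starting point, DESeq2 size factors gave the same counts. The count higher was 0 with no filter, with the replicate block and in limma voom, and ranged from 0 to 2 as each library was left out. The count lower was 3 with total counts, 3 with no filter, 0 with the replicate block, 9 in DESeq2 and 0 in limma voom, and ranged from 0 to 16 as each library was left out. The median log2 fold of all genes was 0.10 with total counts and 0.06 with TMM. The direction of the 6 called genes was the same in every alternative run.

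Some folds of genes that were not called changed sign, and the cause was not tested. With the replicate block, the log2 fold was -0.04 for Kcnj10, -0.45 for Kcnt1, -0.05 for Kcnj9, -0.02 for Kcnj2, -0.10 for Kcnk2 and 0.03 for Kcnmb4. In limma voom it was -0.06 for Kcnj16, -0.45 for Kcnt1, -0.00 for Kcnj9, -0.07 for Kcnj2 and -0.04 for Kcnk2. As each library was left out, the log2 fold ranged from -0.12 to 0.25 for Kcnj10, from -0.12 to 0.57 for Kcnj16, from -0.21 to 0.72 for Kcnab2 and from -0.38 to 0.14 for Kcnf1. It ranged from -1.21 to 0.63 for Kcnt1, from -0.38 to 0.33 for Kcnj9, from -0.19 to 0.39 for Kcnj2, from -0.27 to 0.35 for Kcnk2, from -0.35 to 0.19 for Kcnmb4, from -1.80 to 0.50 for Kcnh4 and from -0.03 to 0.74 for Kcnj5.

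With 3 IP libraries, 1 of which holds far less of the ependymal markers, the standard errors of the log2 folds of Kcnj10 and Kcnj16 (0.25 and 0.45) limit what could be detected. Depth limits only the genes with few counts, such as Kcnn4.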
